A study of Arabidopsis thaliana with 18 samples.

Results

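Intact leaves of Arabidopsis thaliana at 12 days were set against intact leaves at 9 days, an early step of leaf maturation. The 6 libraries, 3 per age, were chosen by their titles from the 18 of the series, as the samples taken at time 0, before any culture. All hold polyadenylated RNA of wild-type Columbia (Col-0), taken from the first pair of rosette leaves. The seedlings grew at 22°C in constant light on MS medium with sucrose, and no agent was applied at either age. The other 12 libraries are intact leaves of 15 days and detached leaves of the 3 ages after 1 day on medium without sucrose. They entered the fit to share its estimate of the spread, and of these only the 15-day intact leaves are described, beside the early step. The labels do not say whether the 3 replicates of an age came from separately grown plants, so the p-values rest on a spread among these samples that may be technical. Whole leaves were taken, so fewer cells of a type and less RNA per cell cannot be told apart in any value given here.

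A young Arabidopsis leaf first grows by cell division throughout the blade. Division then stops, first at the tip and later towards the base, and the cells go on to expand, many of them copying their DNA without dividing (the endocycle). Scattered cells of the stomatal lineage, which form the pores of the epidermis, keep dividing after their neighbours have stopped. Entry into mitosis depends on A- and B-type cyclins bound to cyclin-dependent kinases (CDKs), entry into DNA synthesis on D-type cyclins and E2F factors, and the change to expansion is timed by regulators such as the GRF, TCP and SPL factors, several of them under the control of microRNAs.

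Library totals were 29664089, 34540635 and 37974234 expected counts at 12 days and 36279224, 30493240 and 51126114 at 9 days. Replicate 2 of 12 days stood apart from its group. Correlations across genes of log2 CPM (counts relative to the library's scaled size) were 0.935 to 0.964 within 12 days and 0.966 to 0.981 within 9 days. This library had 0.935 and 0.948 with replicates 1 and 3 of 12 days, which had 0.964 with each other. It had 0.944 with replicate 2 of 15 days, with which replicates 1 and 3 of 12 days had 0.849 and 0.870. With replicates 1 and 3 of 15 days all the 12-day libraries had 0.929 to 0.943. With the 9-day libraries it had 0.874 to 0.921, and replicates 1 and 3 of 12 days had 0.945 to 0.957. The share of counts from organelle-encoded genes was 0.296% in it and 0.0395% to 0.128% in the other 5. A list's count of called genes is given with and without it where the count changes, and the lists with no call had none without it either. Replicate 3 of each age was labelled with other tag names than replicates 1 and 2, so counts from replicates 1 and 2 alone are given where they moved a list's count by more than 1.5-fold. The leaf identity of the samples was checked against marker genes. Summed over 6 mesophyll markers, the level was 66397 to 81094 CPM at 12 days and 51515 to 84126 CPM at 9 days. Of 10 markers of the shoot meristem and organ boundary, WUS and LOF1 had no counts in the 6 libraries, and the summed level was 0.552 to 0.706 CPM at 12 days and 1.2 to 1.29 CPM at 9 days. The 12 root markers summed to 35.1 to 45.3 CPM at 12 days and 36.6 to 46.5 CPM at 9 days, nearly all from SCR and SHR, which leaves also express, and PLT1, PLT2 and RHD6 had no counts. The 17 flower and seed markers summed to 2.47 to 4.66 CPM at 12 days and 2.29 to 4.26 CPM at 9 days.

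Of 20952 genes tested, 1559 (7.44%) differed between 12 and 9 days at an adjusted p below 0.05 in edgeR's quasi-likelihood test, and such genes are named called here. At 12 days 717 genes (3.42%) were higher and 842 (4.02%) lower, and 1215 (5.80%) changed 2-fold or more. The median log2 fold change over all genes tested was 0.02. Without replicate 2 of 12 days 653 genes were called (3.08%), 318 higher (1.50%) and 335 lower (1.58%), and 638 of them were among the 1559. Leaving out replicate 1, 2 or 3 of 9 days gave 937, 712 and 869 calls. Replicates 1 and 2 alone gave 1055 (5.05%), 391 higher (1.87%) and 664 lower (3.18%). An unadjusted p below 0.05 was reached by 24.5% of genes, and DESeq2 called 13.3%. The 3 libraries of each age did not overlap for 26.5% of genes, with those of 12 days all above for 12.2% and all below for 14.3%. Of 41 lists of genes by role, the largest shares of called members were in the lists of mitosis, D-type cyclins and the stomatal lineage. Where no share stands beside a list's count, it is to be read against 4.02% of all genes lower and 3.42% higher.

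**Figure D1:**
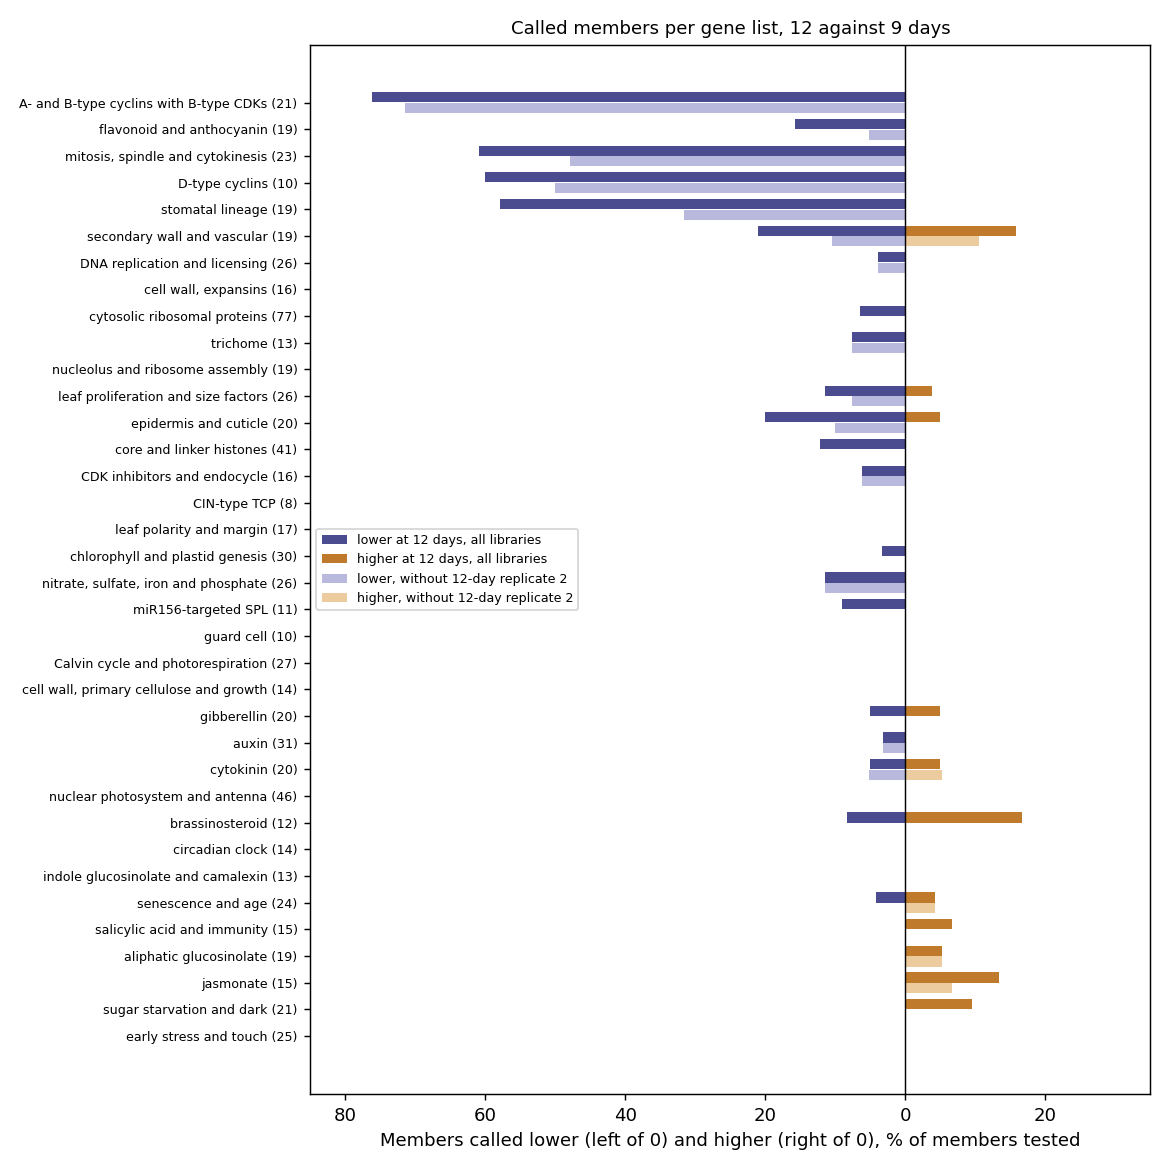
Share of the tested members of each list called lower (left of 0) or higher (right of 0) at 12 against 9 days, in percent, with the number tested in brackets and lists ordered by their median log2 fold change. Dark bars use all libraries and pale bars leave out replicate 2 of 12 days; 16 of 21 A- and B-type cyclins and CDKBs and 14 of 23 mitosis genes were lower with all libraries.

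Most A- and B-type cyclins and B-type CDKs were lower at 12 days. Of the 21 A- and B-type cyclins, B-type CDKs and their CKS partners, 16 fell and none rose, against 4.02% of all genes tested that fell, and the list's median log2 fold change was -1.72. The 16 were CYCA1;1, CYCA2;3, CYCA2;4, the B-type cyclins CYCB1;1 to CYCB1;4 and CYCB2;1 to CYCB2;4, the kinases CDKB1;1, CDKB1;2, CDKB2;1 and CDKB2;2, and the kinase subunit CKS2. CYCB1;1, whose promoter is widely used to mark dividing cells, had 0.941, 0.586 and 0.489 CPM at 12 days, against 3.37, 3.91 and 3.1 CPM at 9 days. CYCB2;4 had 2.51, 1.69 and 2.53 CPM at 12 days, against 6.61, 8.01 and 7.52 CPM at 9 days. All the 12-day libraries lay below all those of 9 days for both cyclins, by -2.37 ± 0.32 (SE) on the log2 scale for CYCB1;1 (adjusted p = 0.000687) and -1.72 ± 0.35 for CYCB2;4 (adjusted p = 0.00904). CYCB2;1 had the largest fall of the list, -2.73 ± 0.32, with 0.247 ± 0.0251 CPM at 12 days and 1.67 ± 0.566 CPM at 9 days (SD, n = 3 each). The CDKB kinases are plant-specific and act at the G2-to-M transition. CDKB2;1 had 6.12, 5.38 and 4.23 CPM at 12 days, against 14.1, 14.8 and 12.5 CPM at 9 days (log2 -1.40 ± 0.22, adjusted p = 0.00167). CDKB1;1 had 1.69, 1.21 and 1.04 CPM at 12 days, against 3.84, 3.84 and 3.3 CPM at 9 days (log2 -1.48 ± 0.24, adjusted p = 0.00208). Without replicate 2 of 12 days 15 of the 21 were called, CKS2 being lost, and 14 of the 16 were called in each of the 6 fits that leave out 1 library. Replicates 1 and 2 alone gave 12 calls. The 5 members not called were CYCA2;1, CYCA2;2, CYCA3;1, CYCA3;2 and CKS1, with log2 values of -1.68 to -0.03.

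The machinery that divides the cell showed the same direction. Of 23 tested genes of the spindle, checkpoint and cytokinesis, 14 fell and none rose, with a median of -1.54. KNOLLE (AT1G08560, chromosome 1, 2709525 to 2711000, minus strand) encodes the syntaxin that fuses vesicles at the cell plate. It had 6.98, 5.55 and 7.31 CPM at 12 days, against 23.3, 23.9 and 18.5 CPM at 9 days, a log2 fold change of -1.73 ± 0.19 (adjusted p = 0.000203). Along 464 bases KNOLLE overlaps AT1G08550 on the opposite strand, a gene at a mean of 197 CPM at 12 days and 186 CPM at 9 days, and strand use in the counting is not stated. HINKEL, the kinesin that lets the cell plate spread outwards, had 2.39, 1.76 and 2.68 CPM at 12 days, against 8.59, 9.19 and 10.1 CPM at 9 days (log2 -2.03 ± 0.30, adjusted p = 0.00111). EDE1, a microtubule-binding subunit of the mitotic arrays, had 0.667, 0.207 and 0.604 CPM at 12 days, against 2.27, 2.95 and 1.49 CPM at 9 days (log2 -2.17 ± 0.49, adjusted p = 0.0146). No library of 12 days reached the lowest of 9 days for these 3 genes, but EDE1 lost its call without replicate 2 of 12 days (adjusted p = 0.0687). CDC20.1, an activator of the anaphase-promoting complex, fell by 2.24 on the log2 scale (SE 0.18), to 4.33 ± 0.7 CPM at 12 days, against 20.5 ± 0.968 CPM at 9 days. The other 10 called members were CDC20.2, PLE, TPX2, AUR1, AUR2, MAD2, PATRONUS, POK1, POK2 and the transcription factor MYB3R4, at -2.04 to -1.44. Without replicate 2 of 12 days 11 of the 23 were called, EDE1, AUR2 and PATRONUS being lost, and replicates 1 and 2 alone gave 13 calls. Summed over the list, the level was 94.6, 75.7 and 93.8 CPM at 12 days, against 204, 221 and 206 CPM at 9 days.

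**Figure D2:**
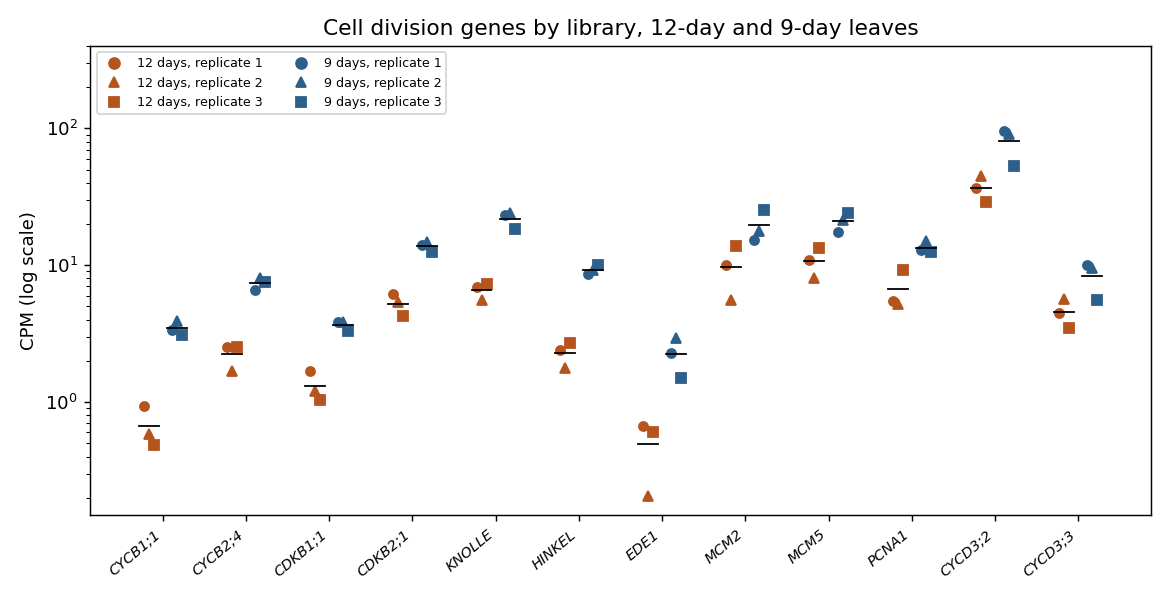
CPM on a log scale of 12 cell division genes in each library, 12 days left and 9 days right of each gene name, with circles, triangles and squares for replicates 1, 2 and 3 and a black line at the mean of 3. The groups are apart for the mitotic genes from CYCB1;1 to EDE1 and for MCM2, MCM5, PCNA1 and CYCD3;2, and overlap for CYCD3;3.

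Many G2/M genes of plants carry the short element AACGG, the core bound by MYB3R factors, in their promoters. On either strand of the 250 bases before the annotated start, 27 of the 45 members of both mitotic lists held it (60%), against 20.6% of all 27443 nuclear protein-coding genes, and 13 held at least 2 copies (28.9%, against 3.62%). The share was 18 of 30 (60%) among members called lower and 9 of 15 (60%) among those not called or not tested, so presence of these letters did not separate the 2 sets. The last 150 bases before the start are shown for 3 called genes, since they show where the element lies, with each copy in capitals (CCGTT is the same element on the other strand). The sequences were read from the TAIR10.1 reference, each 5′ to 3′ on the gene's strand.
KNOLLE, chr1:2711001-2711150, minus strand: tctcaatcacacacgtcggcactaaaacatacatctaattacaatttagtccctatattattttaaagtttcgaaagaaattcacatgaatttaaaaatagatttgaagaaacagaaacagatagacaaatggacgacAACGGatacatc
HINKEL, chr1:6324379-6324528, minus strand: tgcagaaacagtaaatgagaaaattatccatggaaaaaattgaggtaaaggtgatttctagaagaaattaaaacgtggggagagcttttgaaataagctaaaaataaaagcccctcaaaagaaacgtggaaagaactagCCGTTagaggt
CYCB1;1, chr4:17624309-17624458, minus strand: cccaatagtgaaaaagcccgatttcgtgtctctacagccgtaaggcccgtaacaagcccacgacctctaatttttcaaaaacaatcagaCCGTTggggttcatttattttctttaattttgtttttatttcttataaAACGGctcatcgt
The element began 12 bases before the start in KNOLLE, 11 in HINKEL, and 13, 61 and 168 in CYCB1;1, the last of these outside the bases shown. The windows of CDKB2;1 and CYCB2;4, which also fell, held none, and a match is a description of the letters, not of binding.

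Most genes of DNA synthesis did not pass the test. Of 26 genes of replication origin licensing and synthesis, 1 fell (3.85%, against 4.02% of all genes). It was CDT1B, a licensing factor, which had 1.01 ± 0.427 CPM at 12 days and 4.66 ± 0.456 CPM at 9 days (log2 -2.20 ± 0.35, adjusted p = 0.00156, called in each leave-one-out fit). The median was -0.84, 24 of the 26 values were negative, and the 12-day libraries lay wholly below those of 9 days for 16 members, against 14.3% of all genes. An unadjusted p below 0.05 was reached by 13 of the 26, against 24.5% of all genes. DESeq2 called 4 of them lower, beside 13.3% of all genes that it called in either direction. MCM2 and MCM5 encode parts of the replicative helicase. MCM2 had 9.96, 5.55 and 13.7 CPM at 12 days, against 15.2, 17.9 and 25.5 CPM at 9 days (log2 -1.0 ± 0.46, adjusted p = 0.193). MCM5 had 10.9, 8.07 and 13.4 CPM at 12 days, against 17.5, 21.3 and 24.1 CPM at 9 days (log2 -0.95 ± 0.33, adjusted p = 0.0916). PCNA1, the sliding clamp of the polymerase, had 5.49, 5.21 and 9.26 CPM at 12 days, against 12.9, 15 and 12.5 CPM at 9 days (log2 -1.02 ± 0.37, adjusted p = 0.106). In these 3 genes the groups did not overlap, and replicate 2 gave the lowest value of 12 days. PCNA1 passed the test in replicates 1 and 2 alone, where 2 members of the list were called. E2F sites, searched as TTTCCCGC, TTTGGCGC, TTTGCCGC and TTTCGCGC on both strands of the same 250 bases, were in 8 of the 26 replication genes (30.8%), in 0 of the 45 mitotic genes and in 1.41% of all genes. The promoters of both MCM genes are shown, with the site in capitals, to set beside the mitotic ones.
MCM5, chr2:3527501-3527650, minus strand: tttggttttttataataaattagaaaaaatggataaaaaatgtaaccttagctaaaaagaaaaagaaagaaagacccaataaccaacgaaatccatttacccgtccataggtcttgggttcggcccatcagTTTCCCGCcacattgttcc
MCM2, chr1:16970064-16970213, plus strand: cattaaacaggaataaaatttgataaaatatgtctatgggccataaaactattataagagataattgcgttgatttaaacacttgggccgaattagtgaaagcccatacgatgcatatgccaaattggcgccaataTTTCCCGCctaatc
The site began 19 bases before the start in MCM5 and 14 in MCM2, and none was found before PCNA1.

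D-type cyclins, which carry growth signals into the cycle, fell in part. Of 10 tested, 6 were lower and none higher, with a median of -1.19, and 5 were lower without replicate 2 of 12 days. CYCD3;2 had 36.5, 44.7 and 29.1 CPM at 12 days, against 95.7, 91.4 and 53.4 CPM at 9 days (log2 -1.12 ± 0.24, adjusted p = 0.0112). CYCD3;3 had 4.47, 5.69 and 3.45 CPM at 12 days, against 10, 9.48 and 5.6 CPM at 9 days, with groups that overlapped in 1 library (log2 -0.88 ± 0.23, adjusted p = 0.0333). CYCD3;1, CYCD4;1, CYCD4;2 and CYCD6;1 also fell, with log2 values of -1.42 ± 0.28, -1.53 ± 0.26, -1.25 ± 0.31 and -1.91 ± 0.35 in that order. CYCD6;1 overlaps the more highly expressed AT4G03260 on the other strand along 847 bases. CYCD2;1, CYCD1;1, CYCD5;1 and CYCD7;1 were not called, at 0.40, -0.85, -0.08 and -2.80. On the per-length scale of TPM, CYCD3;2 had the highest level of the family at both ages, 28.4 ± 5.07 at 12 days and 66 ± 10.5 at 9 days. CYCD2;1 had 14.6 ± 1.47 TPM at 12 days and 11.9 ± 1.05 TPM at 9 days, and CYCD3;1 had 5.3 ± 0.571 TPM at 12 days and 15.3 ± 2.01 TPM at 9 days, so CYCD2;1 was the higher of both at 12 days, and CYCD3;1 at 9 days by a margin close to the sum of the SDs. Leaving out replicate 2 of 9 days left 4 of the 6 calls.

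The inhibitors of CDKs and the activators of the endocycle mostly gave no call. Of 16 tested, CCS52B fell, an activator of the anaphase-promoting complex that is expressed in mitotic cells, with 4.01 ± 0.243 CPM at 12 days and 13.4 ± 1.77 CPM at 9 days (log2 -1.74 ± 0.28, adjusted p = 0.00171). The list's median was -0.33. CCS52A1, its relative that promotes the endocycle, had 12.7, 12 and 7.34 CPM at 12 days, against 12.9, 10.8 and 10.5 CPM at 9 days. The inhibitor KRP2 had 16, 7.62 and 15.5 CPM at 12 days, against 14.2, 15 and 15.9 CPM at 9 days. SMR1, of the SIAMESE-related inhibitors, had 65, 35 and 53.7 CPM at 12 days, against 54.3, 50 and 45.5 CPM at 9 days. The ages overlapped for all 3, whose log2 values of -0.09 ± 0.26, -0.20 ± 0.38 and 0.04 ± 0.23 (CCS52A1, KRP2, SMR1) had adjusted p of 0.86, 0.783 and 0.941. Among 41 tested histone genes 5 fell (12.2%, against 4.02% of all genes), and the median was -0.36. The 5 were HTA11, HTA13, HTB1, AT3G53650 and AT3G09480, at -1.23 to -0.87. None of these was called without replicate 2 of 12 days, and histone genes share reads among near-identical copies.

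For ribosome genes the calls depended on which libraries were fitted. Of 77 tested genes for cytosolic ribosomal proteins, 5 fell (6.49%, against 4.02% of all genes) and none rose, with a median of -0.58. They were AT5G15520 (S19e family), AT3G16780 (L19e family) and AT2G27710, AT3G44590 and AT5G47700 (acidic 60S proteins), at -0.95 to -0.73, and none was called without replicate 2 of 12 days. In replicates 1 and 2 alone 47 of the 77 were lower, beside 3.18% of all genes. Summed over 83 loci, the level was 7534, 6217 and 9182 CPM at 12 days, against 12689, 12925 and 8718 CPM at 9 days. Replicates 1 and 2 of 12 days thus lay below all the 9-day libraries. Replicate 3 of 12 days lay above replicate 3 of 9 days and below replicates 1 and 2 of 9 days. None of 19 genes of the nucleolus was called by edgeR, with a median of -0.55, while 8 had an unadjusted p below 0.05 and DESeq2 called 3 lower. NUC1, a nucleolin, had 99.6, 87.4 and 180 CPM at 12 days, against 149, 179 and 189 CPM at 9 days (log2 -0.49 ± 0.24, adjusted p = 0.229). FIB2, a fibrillarin that modifies ribosomal RNA, had 5.69, 2.17 and 9.95 CPM at 12 days, against 14.7, 18.3 and 17.7 CPM at 9 days (log2 -1.50 ± 0.51, adjusted p = 0.0838). Without replicate 3 of 12 days 6 of the 19 nucleolar and 22 of the 77 ribosomal genes were lower, beside 5.40% of all genes. Replicates 1 and 2 alone gave 1 nucleolar call, and a term for replicate 3 in the fit gave 2. Site II elements were searched as GGGCCCA, as the form TGGGCC that overlaps it, and as the variant TGGGCT. They were in the windows of 61 of 83 ribosomal genes (73.5%), 15 of 26 replication genes (57.7%), 12 of 45 mitotic genes (26.7%), 8 of 19 nucleolar genes (42.1%) and 19.2% of all genes. The telo box AAACCCTA was in 20 of 83 ribosomal genes (24.1%), 2 of 19 nucleolar genes (10.5%) and 4.49% of all. The class II TCP consensus GTGGNCCC was in 0.67% of all genes and in at most 2 members of any of these lists.

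Among regulators of leaf size, the clearest changes were in GRF4 and GRF2, of the growth-regulating factors (GRFs), which keep leaf cells dividing. No other GRF was called. GRF4 fell to 3.57, 1.35 and 5.01 CPM at 12 days, against 15.2, 16.7 and 16.9 CPM at 9 days (log2 -2.29 ± 0.42, adjusted p = 0.00422). GRF2 fell by 1.27 on the log2 scale (SE 0.23, adjusted p = 0.00382), and both kept their calls in each leave-one-out fit. ANT, an AP2-type factor that prolongs proliferation, had 8.74, 4.38 and 5.75 CPM at 12 days, against 14.6, 13.5 and 14.2 CPM at 9 days (log2 -1.17 ± 0.27, adjusted p = 0.0177, and 0.0918 without replicate 2 of 12 days). ROT3, a cytochrome P450 of brassinosteroid synthesis that acts on leaf length, was the only one of the 26 tested members to rise, by 1.45 ± 0.37 (adjusted p = 0.0276, and 0.113 without that replicate). The list's median was -0.42, and of its 4 called members only GRF4 was called in replicates 1 and 2 alone. GRF3 had 3.25, 11 and 7.8 CPM at 12 days, against 14.7, 10 and 12.8 CPM at 9 days, with overlap. GRF5 was not tested, since it had 2 counts over the 3 libraries of 12 days and 26 over those of 9 days. GIF1, the GRF coactivator also called AN3, had 0.863, 0.621 and 2.21 CPM at 12 days, against 0.944, 0.295 and 1.12 CPM at 9 days, with overlap (log2 0.64 ± 0.76).

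Class II TCP factors, which bring division in leaves to an end, gave no call among 8 tested, with a median of -0.29, and none in DESeq2 or at an unadjusted p below 0.05. TCP4 had 72.8, 18.2 and 51.9 CPM at 12 days, against 70, 82.1 and 103 CPM at 9 days (log2 -0.84 ± 0.41, adjusted p = 0.223). TCP24 had 46.1, 30.2 and 64.2 CPM at 12 days, against 48.8, 59.9 and 75 CPM at 9 days (log2 -0.39 ± 0.26, adjusted p = 0.38). For both the lowest 12-day value was that of replicate 2, and the ages overlapped. Of 11 SPL factors, which promote the adult phase and are held down by miR156 in young plants, SPL15 fell and none rose. SPL15 had 1.25, 0.276 and 0.403 CPM at 12 days, against 2.52, 3.25 and 2.39 CPM at 9 days (log2 -2.09 ± 0.58, adjusted p = 0.0396, and 0.174 without replicate 2 of 12 days), and was not called in replicates 1 and 2 alone. Over its 1793 bases SPL15 overlaps AT3G57910 on the other strand. SPL9 had 8.78, 1.59 and 5.61 CPM at 12 days, against 9.54, 12.6 and 11.1 CPM at 9 days, apart but not called (adjusted p = 0.289). SPL3 had 8.59, 15.6 and 7.91 CPM at 12 days, against 14.6, 12.1 and 8.75 CPM at 9 days, with overlap. The 37 precursor loci of microRNAs of ageing and leaf growth, MIR156A, MIR156C and MIR396B among them, were listed at 0 counts in the 6 libraries, so they could not be compared. None of 17 tested polarity genes was called by edgeR (median -0.28), while 3 had an unadjusted p below 0.05 and DESeq2 called 1 lower and 1 higher. AS1, a MYB factor of leaf polarity, had 55.2, 16.3 and 59.3 CPM at 12 days, against 58.5, 66.5 and 86.6 CPM at 9 days. YAB1, which marks the lower side, had 35.7, 32.1 and 23.6 CPM at 12 days, against 33.8, 28.7 and 25.4 CPM at 9 days.

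Genes of the stomatal lineage fell in part. Of the 19 tested, which include early and late genes, 11 were lower at 12 days and none higher. This stands beside 4.02% of all genes that were lower, and the list's median was -1.15. SPCH, the bHLH factor that starts the lineage, had 1.02, 0.103 and 0.892 CPM at 12 days, against 7.08, 7.9 and 7.19 CPM at 9 days, a log2 fold change of -3.45 ± 0.63 (adjusted p = 0.00402). MUTE, which ends the divisions of the meristemoid, fell by 3.51 on the log2 scale (SE 0.62), to 0.325 ± 0.118 CPM at 12 days, against 3.77 ± 0.347 CPM at 9 days. EPF2, a secreted peptide that limits entry to the lineage, fell by 4.46 (SE 0.69), the largest change of the list, with 0.218 ± 0.285 CPM at 12 days and 5.12 ± 0.892 CPM at 9 days. BASL and POLAR, which mark cell polarity in asymmetric division, fell by 3.42 and 3.76 (SE 0.70 and 0.73). The receptor-like protein TMM had 3.72, 1.28 and 5.93 CPM at 12 days, against 19.5, 29.8 and 33.6 CPM at 9 days (log2 -2.92 ± 0.62, adjusted p = 0.0105). In every one of these 6 genes all the 12-day libraries were below those of 9 days, replicate 2 was lowest at 12 days in all but EPF2, and each of them was called in all 6 leave-one-out fits. The other 5 called genes, SDD1, ERL1, EPF1, SCRM2 and ER, at -2.64 to -0.95, lost their call without replicate 2 of 12 days.

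The 8 members of the list not called were SCRM, ERL2, BRXL2, HDG2, FAMA, FLP, MYB88 and EPFL9. Of these FAMA, FLP and MYB88 act later in the lineage, and EPFL9 is a signal from the mesophyll. FAMA, which sets guard cell identity, had 21.1, 12.5 and 25.9 CPM at 12 days, against 21.5, 19.6 and 40.1 CPM at 9 days (log2 -0.45 ± 0.35, adjusted p = 0.456). EPFL9, the stomata-promoting peptide stomagen made in the mesophyll, had 26.4, 17.7 and 35.1 CPM at 12 days, against 63.9, 47.4 and 32.4 CPM at 9 days (log2 -0.86 ± 0.34, adjusted p = 0.135). Both overlapped between the ages, and FLP and MYB88, which act in the last division, had values of 0.17 and 0.13. None of 10 tested guard cell genes was called, among them MYB60, SLAC1 and KAT1, and their median was 0.06. At an unadjusted p below 0.05 there were 3, and DESeq2 called 1 lower. Replicates 1 and 2 alone, and the fit with a term for replicate 3, each called 2 of the 10 lower, KAT1 and KAT2. Whether early and late genes differed in their change was not tested.

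**Figure D3:**
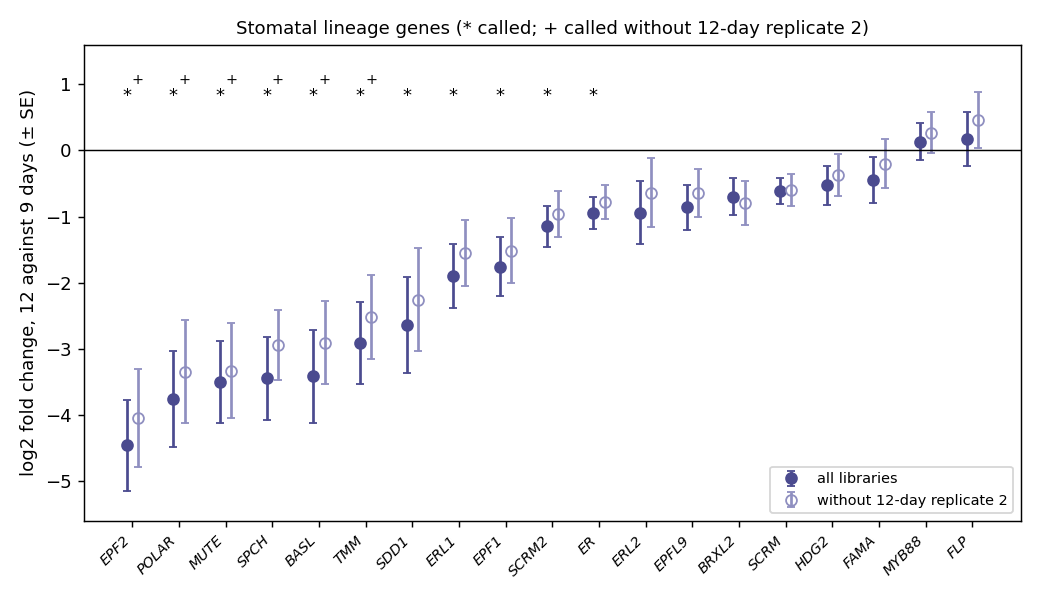
Log2 fold change at 12 against 9 days of the 19 genes of the stomatal lineage, with the SE as bars, filled points for all libraries and open points without replicate 2 of 12 days. Asterisks mark the 11 genes called with all libraries and plus signs the 6 called without that replicate, from EPF2 at -4.46 to TMM at -2.92.

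In the epidermis and cuticle list, 4 of 20 tested genes fell and 1 rose, around a median of -0.41. These are 20% and 5% of the list, against 4.02% and 3.42% of all genes. PDF1, a proline-rich protein of young epidermis, had 2.78, 1.52 and 5.26 CPM at 12 days, against 120, 106 and 77.9 CPM at 9 days (log2 -4.98 ± 0.45, adjusted p = 5.02e-05). The wax genes went in both directions. CER1, of alkane synthesis, had 1.57, 0.207 and 0 CPM at 12 days, against 34.7, 39.8 and 24.3 CPM at 9 days. WSD1, a wax ester synthase, had 0 counts at 12 days and 156 at 9 days, at least 40.9-fold lower when 3 counts are set as the limit for the 12-day group. CER8, a long-chain acyl-CoA synthetase, fell by 1.61 on the log2 scale (SE 0.32, adjusted p = 0.00671). CER6, the condensing enzyme of very-long-chain fatty acids, rose instead, with 386, 461 and 367 CPM at 12 days, against 173, 140 and 241 CPM at 9 days (log2 1.13 ± 0.32, adjusted p = 0.0451). PDF1 and CER8 kept their calls without replicate 2 of 12 days, while CER1, WSD1 and CER6 did not (adjusted p = 0.102, 0.128 and 0.162). In replicates 1 and 2 alone 2 of the list fell and 1 rose. Of 13 trichome genes, GL2, a homeobox factor of trichome growth, fell to 3.08 ± 0.152 CPM at 12 days, against 10.4 ± 2.35 CPM at 9 days (log2 -1.76 ± 0.23, adjusted p = 0.000517). GL2 overlaps AT1G09927 and AT1G79850, which had means of 375 and 350 CPM at 12 days and 531 and 502 CPM at 9 days.

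In the list of secondary wall and vascular genes 4 of 19 tested members fell and 3 rose (21.1% and 15.8%, against 4.02% and 3.42% of all genes). The secondary-wall cellulose synthases CESA7 and CESA8 fell by 1.36 and 1.68 on the log2 scale (SE 0.25 and 0.30, adjusted p = 0.00477 and 0.00393), as did their regulators MYB46 and MYB83, by 1.46 and 1.66 (SE 0.38 and 0.41). The 3 that rose encode sugar transporters of the phloem. SWEET11 had 159, 143 and 132 CPM at 12 days, against 53.9, 41.2 and 49.4 CPM at 9 days (log2 1.59 ± 0.27, adjusted p = 0.00266). SWEET12 rose by 1.19 ± 0.27 and SUC2, the proton symporter that loads sucrose into the phloem, by 0.97 ± 0.25. Over the 19 members the median was -1.06. Without replicate 2 of 12 days CESA7, CESA8, SWEET11 and SWEET12 were still called, and MYB46, MYB83 and SUC2 were not. No expansin was called by edgeR among 16 tested (6 at an unadjusted p below 0.05, 3 lower in DESeq2), nor any of 14 genes of the primary wall (2 at an unadjusted p below 0.05, 1 lower in DESeq2). With a term for replicate 3 in the fit, 4 expansins were called lower (EXPA10, EXPA15, EXPA16 and EXPB1). EXPA1, a wall-loosening protein, had 689, 222 and 311 CPM at 12 days, against 93.6, 275 and 352 CPM at 9 days. EXPA8 had 203, 38 and 125 CPM at 12 days, against 64.2, 70.1 and 87.8 CPM at 9 days. In both genes replicate 1 was the highest of 12 days, and the ages overlapped.

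Genes of photosynthesis were expressed at a high level at both ages. None of 46 nuclear genes of the photosystems and antennae and none of 27 genes of the Calvin cycle and photorespiration was called, with medians of 0.36 and 0.08. DESeq2 called none of either list, and 0 and 1 had an unadjusted p below 0.05. RBCS1A, a small subunit of Rubisco, had 37768, 28633 and 30980 CPM at 12 days, against 46469, 38061 and 24652 CPM at 9 days (log2 -0.17 ± 0.23, adjusted p = 0.7). LHCB1.3, a light-harvesting protein, had 4234, 4656 and 3133 CPM at 12 days, against 3868, 4211 and 1787 CPM at 9 days (log2 0.29 ± 0.29, adjusted p = 0.585). RCA, Rubisco activase, had 21033, 24275 and 18810 CPM at 12 days, against 18321, 18564 and 13261 CPM at 9 days, apart but not called (log2 0.35 ± 0.24, adjusted p = 0.388). Values were positive in 42 of the 46 photosystem genes. Of 30 genes of chlorophyll synthesis and plastid genesis, TOC33, a receptor for protein import, fell by 0.75 (SE 0.21, adjusted p = 0.0373, and 0.11 without replicate 2 of 12 days). PORA, the protochlorophyllide reductase of etiolated seedlings, had 0.51, 1.24 and 0.978 CPM at 12 days, against 1.7, 1.48 and 1.56 CPM at 9 days (adjusted p = 0.493).

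Some of the largest changes were in iron nutrition. The bHLH factors bHLH38, bHLH39 and bHLH100, which plants make when short of iron, fell, and they were the only called members among 26 genes of nitrate, sulfate, iron and phosphate. bHLH100 had 1.22, 0.069 and 1.84 CPM at 12 days, against 52.2, 68 and 128 CPM at 9 days (log2 -6.29 ± 0.86, adjusted p = 0.00106). bHLH39 had 0.0784, 0.0345 and 1.29 CPM at 12 days, against 18.1, 21.4 and 52.8 CPM at 9 days (log2 -5.96 ± 0.99, adjusted p = 0.00477). bHLH38 had 0.314, 0 and 2.68 CPM at 12 days, against 24.6, 28.5 and 77.2 CPM at 9 days (log2 -5.40 ± 1.01, adjusted p = 0.0066). At both ages replicate 3 was the highest for all 3 genes, the groups were far apart, and the calls held in every leave-one-out fit. bHLH101, the remaining factor of the subgroup, had a value of -2.56 ± 0.75 and missed the threshold (adjusted p = 0.0511). NAS1, which makes the metal chelator nicotianamine, rose, with 46.1, 19.5 and 13.9 CPM at 12 days, against 0.22, 0.111 and 0.128 CPM at 9 days (log2 7.42 ± 1.1, adjusted p = 0.00111). The ferritin FER1, an iron store, had 126, 233 and 167 CPM at 12 days, against 79.7, 59.1 and 25.6 CPM at 9 days, and was not called (log2 1.68 ± 0.59, adjusted p = 0.0959); it and bHLH101 were named after their values were seen.

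In the lists of defence metabolites and hormones few members were called. Of 19 aliphatic glucosinolate genes, MAM3, which elongates methionine chains, rose to 6.82, 3.97 and 4.2 CPM at 12 days, against 0.378, 0.0738 and 0.11 CPM at 9 days (log2 4.75 ± 0.54, adjusted p = 0.000258), and kept its call in each leave-one-out fit. The list's median was 0.92, and 18 of the 19 values were positive. Its regulator MYB28 had 167, 45 and 88.6 CPM at 12 days, against 55.4, 71.1 and 85.3 CPM at 9 days, with overlap. None of 13 indole glucosinolate and camalexin genes was called by edgeR (median 0.62), while 6 had an unadjusted p below 0.05, DESeq2 called 4 higher and a term for replicate 3 in the fit gave 3 higher. Of 19 flavonoid genes, FLS1, F3H and MYB12 fell by 2.33, 2.13 and 1.74 (SE 0.62, 0.61 and 0.51), the median was -1.68, and 18 of the 19 values were negative. F3H overlaps AT3G51238 on the other strand along 1588 bases, a non-coding gene at a mean of 1.66 CPM at 12 days and 7.95 CPM at 9 days. Only FLS1 was called without replicate 2 of 12 days and none in replicates 1 and 2 alone, whereas leaving out replicate 1 of 12 days gave 10 lower, beside 3.00% of all genes. CHS, the entry enzyme, had 574, 84.3 and 196 CPM at 12 days, against 733, 684 and 327 CPM at 9 days, overlapping through replicate 1 of 12 days and replicate 3 of 9 days (log2 -1.03 ± 0.63, adjusted p = 0.335).

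Of 20 cytokinin genes, IPT3, a synthesis enzyme, rose by 2.28 ± 0.55 and LOG8, which activates the hormone, fell by 0.75 (SE 0.15). Both kept their calls without replicate 2 of 12 days. LOG8 was called in each leave-one-out fit, whereas IPT3 was not called when any replicate of 9 days was left out. ARR4, a response regulator, had 103, 108 and 107 CPM at 12 days, against 79.2, 103 and 101 CPM at 9 days. Of 31 auxin genes the importer LAX2 fell by 0.87 (SE 0.18, adjusted p = 0.00911), with 10.5 ± 0.769 CPM at 12 days and 19.3 ± 0.245 CPM at 9 days. Of 20 gibberellin genes GASA4 fell by 1.06 (SE 0.26), and GA20OX2, a synthesis enzyme, had 36 counts at 12 days and 2 at 9 days, a ratio of 22.9 (exact 95% interval 5.89 to 196, counting error only). Of 12 brassinosteroid genes ROT3 (above) and the transcription factor BES1 rose, BES1 by 0.64 ± 0.18, and DWF1, a sterol reductase, fell by 0.90 (SE 0.25). In the salicylic acid list 1 of 15 rose (6.67%, against 3.42% of all genes), PAD4, a lipase-like defence protein, by 1.14 ± 0.30. In the jasmonate list 2 of 15 rose (13.3%, against 3.42% of all genes), AOC1, a synthesis enzyme, by 1.92 ± 0.41 and PDF1.2 by 4.48 ± 0.84. DESeq2 called 6 of these 15 higher, and leaving out replicate 1 of 12 days gave 6 higher, beside 3.25% of all genes, and 1 lower. Without replicate 2 of 12 days GASA4, GA20OX2, ROT3, BES1, DWF1, PAD4 and AOC1 were not called. Replicates 1 and 2 alone gave no call in the gibberellin, brassinosteroid and salicylic acid lists. None of 14 clock genes was called by edgeR or DESeq2, and 2 had an unadjusted p below 0.05.

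Genes of stress, sugar starvation and senescence were high in replicate 2 of 12 days. None of 25 early stress and touch genes was called by edgeR, while 5 had an unadjusted p below 0.05 and DESeq2 called 1 higher. Their median was 1.50 with all libraries and 0.84 without that replicate. Their summed level was 270, 5009 and 2823 CPM at 12 days, against 1617, 848 and 274 CPM at 9 days, and the ages overlapped. TCH4, a touch-induced wall enzyme, had 2.27, 535 and 194 CPM at 12 days, against 303, 33.5 and 6.37 CPM at 9 days. ZAT12, a stress-induced zinc finger protein, had 0.902, 56.1 and 35.2 CPM at 12 days, against 14.4, 21.5 and 4.62 CPM at 9 days. Neither was called (adjusted p = 0.724 and 0.582). Of 21 genes of sugar starvation and darkness, DIN11 and TPS10 were called higher with all libraries, and none in replicates 1 and 2 alone or without replicate 2 of 12 days, where the median was 0.33, against 1.43 with all libraries. TPS10, a trehalose phosphate synthase family member, had 18.2, 114 and 21.7 CPM at 12 days, against 11.9, 9.96 and 9.86 CPM at 9 days. DIN11, a dark-induced dioxygenase, had 420 counts at 12 days and 3 at 9 days, a ratio of 178 (60.4 to 866). ASN1, asparagine synthetase, had 7.45, 442 and 33 CPM at 12 days, against 25.4, 3.43 and 0.44 CPM at 9 days (adjusted p = 0.203). DIN1, also called SEN1, had 6, 263 and 31.7 CPM at 12 days, against 8.21, 1.55 and 0.697 CPM at 9 days (adjusted p = 0.0682). The part of this library's state in the other results was not tested beyond the values given without it.

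Of 24 tested senescence genes, ORE1 rose and LOX1 fell, and the median was 0.65. ORE1, a NAC factor that promotes leaf ageing, had 1.45, 12.1 and 8.83 CPM at 12 days, against 0.189, 0.0738 and 0.422 CPM at 9 days (log2 4.87 ± 0.89, adjusted p = 0.00402). Each 12-day library exceeded each of 9 days, and the call held in each leave-one-out fit (adjusted p = 0.0174 without replicate 2 of 12 days). LOX1, a lipoxygenase, fell by 1.3 (SE 0.34, adjusted p = 0.0337, and 0.16 without that replicate), and was not called in replicates 1 and 2 alone. SAG12, the protease that marks advanced senescence, had 0 counts in all 6 libraries.

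**Figure D4:**
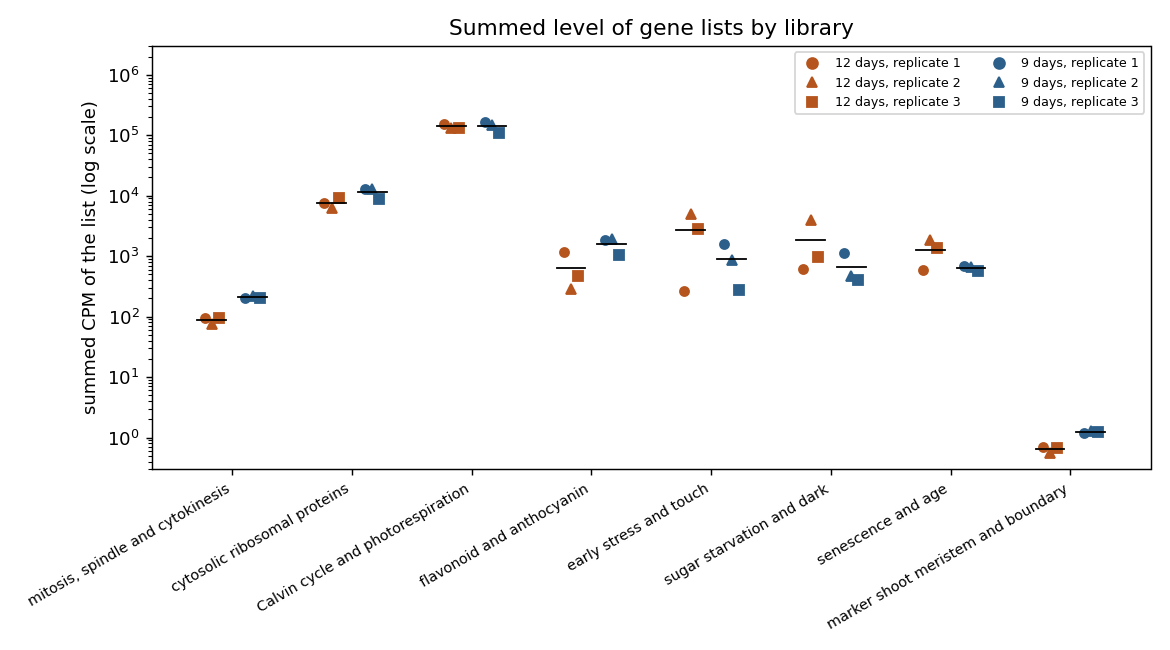
Summed CPM on a log scale of gene lists in each library, 12 days left and 9 days right of each list name, with circles, triangles and squares for replicates 1, 2 and 3 and a black line at the mean of 3. The mitosis sums of 75.7 to 94.6 CPM at 12 days lie below those of 204 to 221 CPM at 9 days, while the early stress sums spread from 270 to 5009 CPM within 12 days.

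Across all genes tested, 433 passed a ranking rule that asked for a call with and without replicate 2 of 12 days, a mean of at least 5 CPM at one age and no overlap between ages, 220 of them higher and 213 lower. Among the higher genes UMAMIT20 (AT4G08290, chromosome 4, 5238773 to 5241112), of a family of amino acid exporters, had 15, 25.3 and 11.4 CPM at 12 days, against 0.283, 0.258 and 0.184 CPM at 9 days (log2 6.18 ± 0.42, adjusted p = 5.83e-06). AT4G15690 and AT4G15660, annotated as thioredoxin superfamily proteins, had 571 and 451 counts at 12 days and 2 each at 9 days, ratios of 363 (99.9 to 3001) and 286 (78.8 to 2372). Both were highest in replicate 2, at 15 and 12.6 CPM, against 1.27 to 2.27 CPM in the other 12-day libraries and at most 0.0369 CPM at 9 days. They lie close together on chromosome 4 and belong to the same annotated family, so how reads were shared between them is uncertain. AT3G09020, a glycosyltransferase family gene, had 1.41, 16.7 and 8.97 CPM at 12 days, against 0.566, 0.184 and 0.184 CPM at 9 days. NAS1 and ORE1 (above), the NAC gene AT3G15500 (log2 4.75 ± 1.0), the defensins PDF1.2 and PDF1.3 (4.48 ± 0.84 and 4.42 ± 0.85, similar copies) and AT5G52050, of the MATE transporter family (4.40 ± 0.84), completed the 10.

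Among the lower genes CYP77B1 (AT1G11600, chromosome 1, 3901950 to 3903895), a cytochrome P450, had 0 counts at 12 days and 6.67, 12 and 12.3 CPM at 9 days. Its 1208 counts at 9 days make it at least 317-fold lower at 12 days. AT2G33850, annotated as an E6-like protein, had 0.353, 0.103 and 0.0575 CPM at 12 days, against 76.9, 51.7 and 79.5 CPM at 9 days (log2 -8.72 ± 0.68, adjusted p = 1.61e-05). TYRDC, tyrosine decarboxylase, had 0.235, 0.0345 and 0 CPM at 12 days, against 4.94, 10.4 and 3.47 CPM at 9 days (log2 -6.19 ± 0.87). bHLH100, bHLH39, bHLH38 and PDF1 (above), AT5G62210 (-5.27 ± 0.74), AT4G29030 (-5.05 ± 0.69) and the lipid transfer protein gene LTP2 (-4.85 ± 0.81) completed the 10 on this side.

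**Figure D5:**
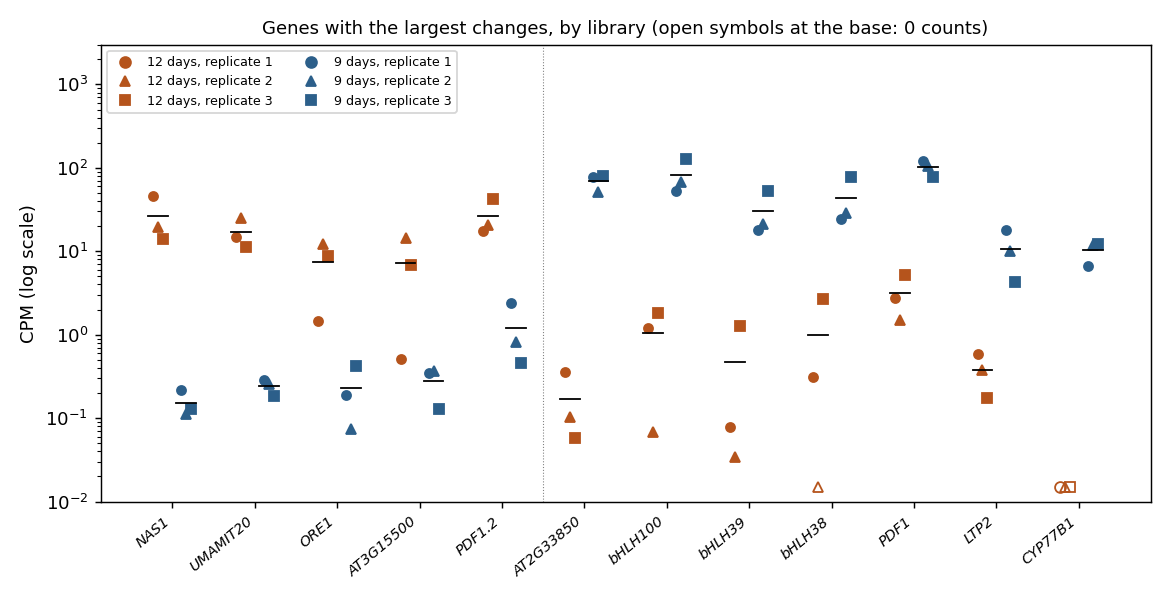
CPM on a log scale in each library of 12 genes with large changes, 12 days left and 9 days right of each gene name, with circles, triangles and squares for replicates 1, 2 and 3 and a black line at the mean of 3. Open symbols at the bottom stand for 0 counts; NAS1, UMAMIT20, ORE1, AT3G15500 and PDF1.2 lie higher at 12 days and the other 7 lower, with no overlap.

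In the 15-day leaves the mitotic genes CYCB1;1 and KNOLLE lay below their 12-day values. Through 9, 12 and 15 days the mean of CYCB1;1 was 3.46, 0.672 and 0.0705 CPM, and KNOLLE stood at 1.15, 1.09 and 0.953 CPM in the 15-day libraries. SPCH stood at 0.131, 0.0321 and 0.122 CPM at 15 days. CYCD3;2 had 33.2, 42.2 and 35.4 CPM at 15 days, a range that overlaps its 29.1 to 44.7 CPM at 12 days. ORE1 was at 79.8, 69.5 and 42.8 CPM at 15 days. Both steps share the 12-day libraries, so their values are given side by side. The difference between the 2 steps was tested in 1 contrast, the step between 9 and 12 days minus the step between 12 and 15 days, and 6 of 20952 genes were called (0.0286%), 4 with a positive value. UMAMIT20 was one of them, with a difference of 4.50 on the log2 scale (adjusted p = 0.0106). None of KNOLLE, CYCB1;1, SPCH and CYCD3;2 was called in it (adjusted p = 0.453, 0.821, 0.989 and 0.497). Without replicate 2 of 12 days the count was 13, and without replicate 2 of both 12 and 15 days it was 68, and in replicates 1 and 2 alone it was 0.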

How the data were processed

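Per the file headers, the authors deposited for each library an expected count per gene, an estimate made by RSEM, and a TPM value per gene. Per the submitters' processing notes, they used Trimmomatic, STAR 2.5.3 and RSEM 1.3.0 with TAIR10. Whether counting used strand is not stated, and 33 of 122 named genes overlap another annotated gene. RSEM shares reads among similar genes, and 15.5% of non-zero values were not whole to within 0.005. The deposited TPM values were used as they stand, for levels compared between genes only.

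Expected counts were rounded, scaled by TMM and filtered with filterByExpr (minimum count 10) in edgeR 4.0.16 (limma 3.58.1, R 4.3.3). All 18 libraries entered a quasi-likelihood fit with a mean for each of the 6 groups, and 12 minus 9 days was tested, with Benjamini-Hochberg adjustment over 20952 genes and a threshold of 0.05. CPM values are TMM-scaled. The SE is the absolute log2 fold change over the square root of F. The biological coefficient of variation was 0.340. In data simulated for this comparison (20790 genes), 1 of 50 changes of 1.5-fold, 9 of 50 of 2-fold, 43 of 50 of 4-fold and 45 of 50 of 8-fold were called, with 1 false call. Changes were planted only in genes with a mean of at least 50 counts, and all other genes had equal means at both ages. With so few changes the adjusted threshold is harder to pass, so these shares do not measure recovery in the real comparison.

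The comparison, the 41 lists (904 loci) and the 50 panel genes were chosen with earlier results of these data known. Of the symbols listed, 25 had no locus here, and ribosomal protein genes were taken by their annotated product. Besides the panel, the text names the first 10 genes up and the first 10 down under the ranking rule, and the 4 called members of each list with the largest change. The remaining called members are named where a list's set is given whole. The few uncalled genes named besides the panel were picked after their values were seen. Members not tested failed the filter. Names, coordinates (1-based) and promoters come from TAIR10.1, with 37390 of 37686 loci matched; the length in both agreed to 0.5 nt for 16593 of 16745 coding genes with a single transcript (99.1%). Intervals and floors cover counting error only.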

Additional observations from a re-analysis of the deposited data

How the results depend on the processing

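Of the 86 named genes that were called, 41 were called under every alternative and none changed direction. Over 1635 values of named genes under the alternatives, 1374 kept direction and side of the threshold, 235 lost the call, 9 gained one and 17 reversed, all of them in genes not called. The count of 1559 genes ranged from 653 (without replicate 2 of 12 days) to 2162 (without replicate 3 of 12 days) when 1 library was left out. It was 580 when only the 6 libraries compared were fitted, 2779 with DESeq2 (77 genes without an adjusted p) and 2572 with a term for replicate 3, and the cause was not tested. RLE scaling gave 1552, no filter 1333 of 27506, and no library that stands apart 1279; RLE factors moved log2 fold changes by -0.00749. The 6 genes of the difference between steps became 13 without replicate 2 of 12 days, 68 without replicate 2 of 12 and 15 days, and 0 in replicates 1 and 2.

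Deviations of same-numbered libraries of 12 and 9 days had correlations of -0.287, 0.046 and 0.297 for numbers 1, 2 and 3. Not all exceeded 0.1, so the numbers were not taken to pair the samples. Replicate 2 of 12 and of 15 days did deviate together (0.683), and replicate 2 had the highest organelle share at 9, 12 and 15 days (0.128%, 0.296% and 0.344%). A replicate block gave 2628 calls, with 1543 of the 1559 among them, and 9 for the difference between steps. In lists with no call it gave 4 expansins, 2 guard cell and 2 nucleolar genes lower, 3 indole glucosinolate genes higher and 1 boundary marker lower.

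The reversed values were all of genes near 0 or with a wide spread. When 1 library was left out, log2 fold changes ranged from -0.38 to 0.07 for KRP2, -0.17 to 0.25 for SMR1, -0.24 to 0.12 for CCS52A1, -0.10 to 0.99 for GIF1, -0.52 to 0.03 for SPL3 and -0.07 to 0.22 for YAB1. They ranged from -0.38 to 0.03 for RBCS1A, -0.01 to 0.48 for LHCB1.3, -0.08 to 0.86 for MYB28 and -0.23 to 3.57 for TCH4. Without both libraries that stand apart KRP2 was at 0.07 and TCH4 at -0.23, and in replicates 1 and 2 alone SMR1 was at -0.08 and CCS52A1 at 0.05. In data simulated with few changed genes 9 of 50 changes of 2-fold were called, which does not measure recovery in the real comparison.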

Other observations

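Further genes higher at 12 days under the ranking rule were picked out after their values were seen, so they stand for no group. AAP2, an amino acid permease, had 169, 121 and 73.5 CPM at 12 days, against 15.6, 7.82 and 10.8 CPM at 9 days (log2 3.41 ± 0.39, adjusted p = 0.000258). AAP4, a related permease, had 64.5, 75.2 and 81.9 CPM at 12 days, against 7.77, 7.67 and 12.8 CPM at 9 days (log2 2.97 ± 0.37, adjusted p = 0.000404). UMAMIT17, a neighbour and relative of UMAMIT20, had 17.4, 8.52 and 16.1 CPM at 12 days, against 1.1, 0.627 and 0.661 CPM at 9 days. UMAMIT12 rose by 2.47 ± 0.26, the nitrate transporter NRT1.5 by 3.89 ± 0.45 and the urea symporter DUR3 by 3.07 ± 0.40. The NAC genes NAC2 and NAC1 (2 other members of the ORE1 family) rose by 3.76 ± 0.48 and 2.99 ± 0.40, and the metallothioneins MT1C and MT1A by 3.2 ± 0.52 and 2.54 ± 0.54. For each of these 10 genes the 12-day libraries all lay above those of 9 days, and the call held without replicate 2 of 12 days. MT1C and MT1A lie close together on chromosome 1 and are annotated as the same family, so how reads were shared between them is uncertain. At 12 days MT1A had a mean of 9.14 CPM but 1059 TPM, against 6.71 CPM and 16.5 TPM for MT1C, so its count is uncertain.

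The lower genes given here were also picked out after their values were seen. LTL1, a GDSL lipase, had 13, 3.9 and 12.4 CPM at 12 days, against 170, 169 and 139 CPM at 9 days (log2 -4.03 ± 0.66, adjusted p = 0.00207). PME5, a pectin methylesterase, had 20.3, 7 and 14.4 CPM at 12 days, against 145, 147 and 136 CPM at 9 days (log2 -3.36 ± 0.48, adjusted p = 0.000841). LTP6, a lipid transfer protein gene, fell to 30.6, 1.14 and 11.8 CPM at 12 days, against 108, 118 and 81.1 CPM at 9 days. PEL3, which acts in cuticle formation, fell by 3.00 (SE 0.30) and AGP4, an arabinogalactan protein gene, by 2.60 (SE 0.41). AT2G22610, with a kinesin motor domain, fell by 2.24 (SE 0.26), the kinesin-like AT5G55520 by 2.36 (SE 0.46) and AT3G01710, of the TPX2 family, by 2.24 (SE 0.29). All but LTP6 were called in each fit that leaves out 1 library. LTP6 (adjusted p = 0.0376) was called without replicate 1 or 2 of 12 days (0.0478 without replicate 2), was not called when replicate 3 of 12 days or any replicate of 9 days was left out, and had 0.187 in replicates 1 and 2 alone.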
